A study of Mus musculus with 12 samples.

Results

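The genes described here encode 10 of the enzymes that make phosphatidylethanolamine and phosphatidylcholine, the main phospholipids of animal membranes. They were taken by symbol from a table of 42450 genes, and all 10 passed the filter on low counts that left 19410 genes. The ethanolamine branch held *Etnk1*, *Etnk2*, *Pcyt2* and *Selenoi*, the choline branch held *Chka*, *Chkb*, *Pcyt1a* and *Pcyt1b*, and *Cept1* and *Pemt* link both branches. This set is not complete, since *Chpt1* of the final choline step was counted with the other genes of phospholipid synthesis.

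PolyA+ RNA was sequenced from wild-type cells of E14tg2a.4, a mouse embryonic stem cell (ESC) line grown on gelatin with LIF, after transfection of 50 nM siRNA duplexes. The siRNA targeted *Srrm2*, which encodes a large splicing factor of nuclear speckles (Srrm2-KD), or firefly luciferase, which the cells lack (Gl2-KD). Cells were collected after 24 h or 72 h in serum-free medium, in 3 experiments, which gave 4 groups of 3 libraries. In the 72 h groups the siRNA was given a second time, 24 h after the first, so time, the second transfection and the stay in serum-free medium cannot be told apart. The knockdown is transient and partial, and the sources used here do not say which of the study's *Srrm2* duplexes each library received.

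In both branches a kinase first phosphorylates the head group, a cytidyltransferase then activates it with CTP, and a phosphotransferase finally joins it to diacylglycerol. The cytidyltransferase step, carried out by PCYT2 for ethanolamine and by PCYT1A and PCYT1B for choline, is regarded as the slow, regulated step of each branch. PEMT methylates phosphatidylethanolamine to phosphatidylcholine, a route best known from liver, and dividing cells depend on the choline branch for new membrane.

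*Pcyt2* (ENSMUSG00000025137) spans chr11:120610087-120617936 in GRCm38, reverse strand, and its annotation lists 12 transcripts, of which 2 are protein-coding and 9 retain an intron. The 2 protein-coding isoforms differ by a coding exon of 54 nt at chr11:120613030-120613083, exon 7 of the 14 exons of Pcyt2-201. The exon holds 18 whole codons, so that the open reading frame of 404 codons in Pcyt2-201 becomes 386 codons in Pcyt2-203, which has 13 exons. Both sequences are shown because the gene-level counts below sum over these isoforms. They were read from GENCODE M21 transcripts, 5′ to 3′ on the gene's strand, with the exon in capitals and 24 nt of the neighbouring exons on either side.
Pcyt2-201: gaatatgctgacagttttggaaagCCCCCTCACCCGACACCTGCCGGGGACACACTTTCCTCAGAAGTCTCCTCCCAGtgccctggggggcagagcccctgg
Pcyt2-203: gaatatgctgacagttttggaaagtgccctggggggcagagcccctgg

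The libraries held 73933196 to 153343831 estimated counts. The log2 fold change of *Srrm2* over both time points was -1.19 (standard error 0.101, adjusted p = 0.00254, edgeR's quasi-likelihood test, Benjamini-Hochberg adjusted) and was lower in all 6 pairs of libraries of the same experiment and time. At the single times it was -1.22 at 24 h (standard error 0.143, adjusted p = 0.0663) and -1.16 at 72 h (standard error 0.142, adjusted p = 0.0991), which did not pass this edgeR test, and it was called in 7 and 10 of 25 alternative fits. Without experiment 1 the values were -1.32 over both times (adjusted p = 0.00735), -1.43 at 24 h (adjusted p = 0.0464) and -1.21 at 72 h (adjusted p = 0.0651). Without experiment 2 or experiment 3 the adjusted p over both times was 0.0899 and 0.102. All 9 ESC markers were at 1 CPM (the count scaled by library size) or more in the median library, and their sum ranged from 5015 to 7697 CPM. Of the markers of other cells, those of primitive endoderm, fibroblast and mesoderm summed to at most 24.6 CPM in any library. Markers of trophectoderm summed to 53.1 to 105 CPM and neural markers to 33.7 to 142 CPM. Few genes made up these sums. The trophectoderm medians were 71.4 CPM for *Tfap2c*, 3.84 for *Krt7* and at most 0.266 for *Cdx2*, *Elf5* and *Hand1*. The neural medians were 53.1 CPM for *Tubb3*, 17.1 for *Pax6*, 0.788 for *Sox1* and 0.019 for *Neurog2*. Among fibroblast markers *Thy1* had a median of 9.43 CPM and the others at most 0.299. Experiment 1 stood apart, with 10367 genes or 53.4% of those tested called against the mean of experiments 2 and 3, so the called results and those of the members are also given without it. The study's methods count batches of the line that were frozen and thawed separately as its biological replicates. Each experiment's own level was fitted once over its 4 libraries. The p-values for siRNA and time therefore rest on how differences among all 4 groups, pooled, varied between these 3 experiments. That spread had 6 residual degrees of freedom and was drawn toward the spread of all genes, so it is not that of 1 comparison alone.

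*Pcyt2* was slightly higher with the *Srrm2* siRNA in each experiment at both times, but the difference did not pass the test. In Gl2-KD at 24 h it was at 52.2, 72.3 and 79.0 CPM in experiments 1, 2 and 3, and in Srrm2-KD it was at 66.1, 81.0 and 93.7 CPM. At 72 h the same experiments gave 54.4, 85.3 and 77.2 CPM in Gl2-KD and 63.2, 88.3 and 82.8 CPM in Srrm2-KD. The value in Srrm2-KD was thus the higher of each pair, yet the groups overlapped at both times. Experiment 1 lay below experiments 2 and 3 in every group. At 72 h, Gl2-KD of experiment 2 (85.3 CPM) was also above Srrm2-KD of experiment 3 (82.8 CPM). The log2 fold change was 0.25 at 24 h (standard error 0.0953, 95% interval 0.04 to 0.46) and 0.12 at 72 h (standard error 0.0953, 95% interval -0.09 to 0.33), with adjusted p of 1 and 0.629 by edgeR's quasi-likelihood test, Benjamini-Hochberg adjusted. Averaged over both times it was 0.19 (standard error 0.0674, 95% interval 0.04 to 0.34, adjusted p = 0.258). Without experiment 1 these values were 0.21, 0.07 and 0.14, the last with an adjusted p of 0.446. The effect at 72 h minus that at 24 h was -0.13 (standard error 0.135, 95% interval -0.43 to 0.17, adjusted p = 1).

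The other 3 genes of the ethanolamine branch did not differ by siRNA beyond their spread. *Etnk1* and *Etnk2*, the kinases that phosphorylate ethanolamine, had log2 fold changes of -0.01 and 0.06 at 24 h and of 0.12 and -0.12 at 72 h. *Selenoi*, a selenoprotein that transfers the activated ethanolamine to diacylglycerol, had 0.02 at 24 h and -0.19 at 72 h (95% interval -0.45 to 0.08, adjusted p = 0.548). None of these genes kept 1 sign across the experiments and both times. Without experiment 1, the 8 members other than *Pcyt2* and *Chka* had log2 fold changes for the siRNA between -0.23 and 0.23 at the single times, none of them called.

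*Chka* (ENSMUSG00000024843, forward strand, chr19:3851773-3894369), a choline kinase that starts the choline branch and can also use ethanolamine, differed in the direction opposite to *Pcyt2*, again without passing the test. Its Gl2-KD libraries of 24 h had 127, 114 and 109 CPM in experiments 1 to 3, and those of Srrm2-KD had 112, 97.1 and 97.7 CPM. After 72 h they had 140, 104 and 113 CPM in Gl2-KD and 110, 86.9 and 100.2 CPM in Srrm2-KD. The Srrm2-KD library was therefore the lower of each of the 6 pairs, although the groups overlapped at both times. The log2 fold change was -0.19 at 24 h (standard error 0.0862, adjusted p = 1) and -0.26 at 72 h (standard error 0.0863, 95% interval -0.45 to -0.07, adjusted p = 0.268), by edgeR's quasi-likelihood test, Benjamini-Hochberg adjusted. Over both times it was -0.23 (standard error 0.061, 95% interval -0.36 to -0.09, adjusted p = 0.156), and -0.21 without experiment 1 (adjusted p = 0.240). This average passed the threshold in 2 other fits, DESeq2 (-0.22, adjusted p = 0.0414) and edgeR with every experiment blocked at either time (-0.22, adjusted p = 0.0272), which called 733 and 1124 genes where the reported fit called 13.

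The other 3 genes of the choline branch, and the 2 linking enzymes, did not pass the test in any comparison of siRNAs. *Chkb*, the second choline kinase, had a log2 fold change of 0.03 at 24 h and -0.18 at 72 h, where Srrm2-KD was the lower in 3 of 3 pairs (adjusted p = 0.597). *Pcyt1a*, the ubiquitous cytidyltransferase for phosphocholine, had -0.05 and 0.09, and its second form *Pcyt1b* had -0.01 and 0.03. *Cept1*, a phosphotransferase that accepts either activated head group, had -0.09 at both times. *Pemt* had 0.16 and 0.14 at 2.19 to 6.30 CPM.

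**Figure D1:**
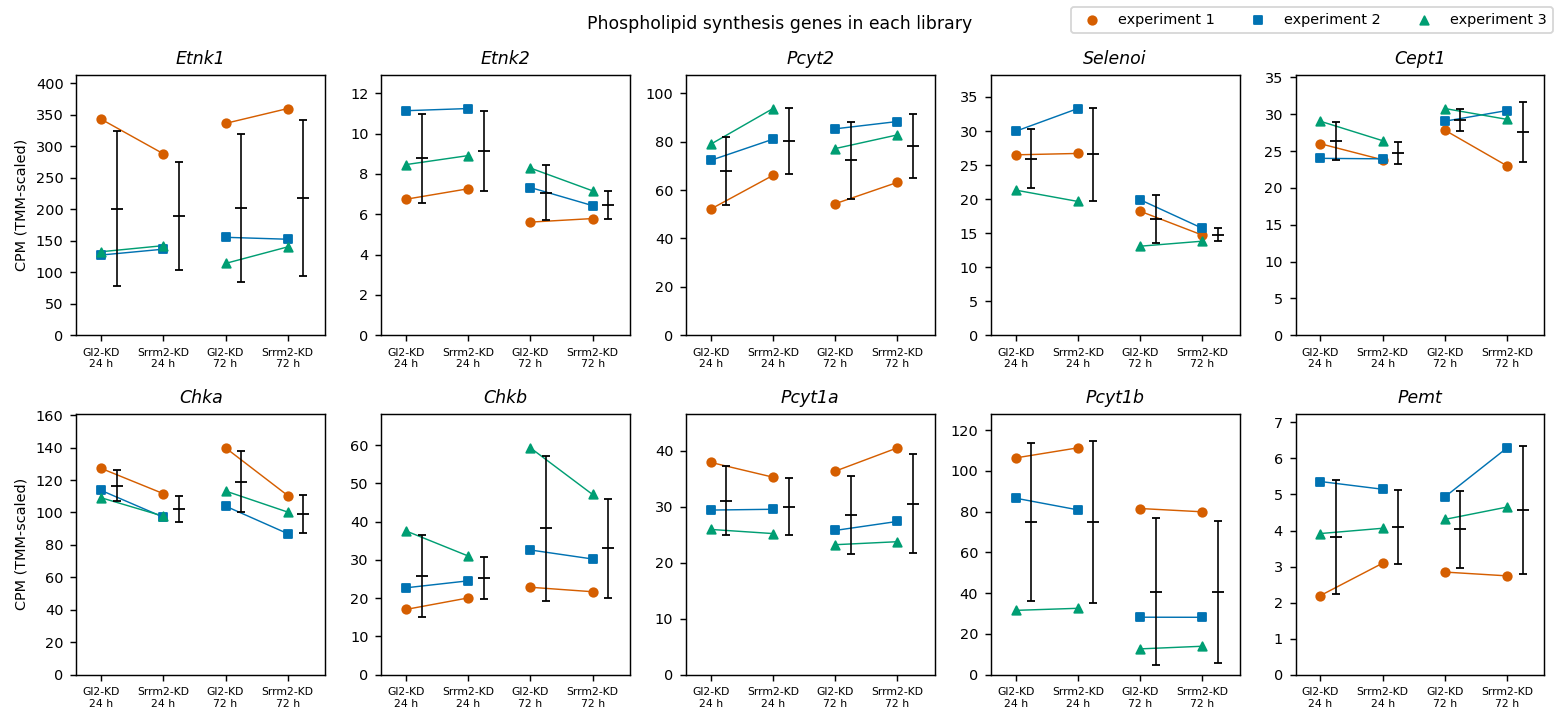
CPM (TMM-scaled, vertical axis, separate scale in each panel) of the 10 enzymes in the 12 libraries by siRNA and time, with each experiment as a point, lines joining libraries of the same experiment and time, and the mean ± SD (n = 3) of each group. *Pcyt2* is higher and *Chka* lower in Srrm2-KD in all 6 pairs, neither passing the reported test, and the share of all genes with such agreement was not determined. Experiment 1 lay above the others for *Etnk1*, at 288 to 360 CPM against 114 to 155 CPM.

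None of the 10 genes was called in the 3 comparisons of siRNAs or in the difference between times. The share called over all genes was 0% at 24 h, 0% at 72 h, 0.067% for their mean and 0% for the difference between times. At 24 h, 2 of the 10 genes and 508 of all genes were below 0.05 by unadjusted p, and DESeq2 called 25 genes and limma-voom 2, with no member among them. At 72 h, 1 member and 2498 genes did so, and DESeq2 called 542 genes and limma-voom 4, again without a member. Over both times 2 members and 2633 genes did so, and *Chka* was the only member that DESeq2 called among 733 genes, while limma-voom called 92 genes and no member. For the difference between times it was 0 members and 319 genes, and DESeq2 called 2 genes and limma-voom 0. The sign was the same in all 3 experiments for 4 members at 24 h (*Pcyt2* and *Etnk2* higher, *Chka* and *Cept1* lower), against 32.7% of all genes. At 72 h there were again 4 (*Pcyt2* and *Pcyt1a* higher, *Chka* and *Chkb* lower), against 41.9%. Both counts of 4 among 10 were near this background. The share of all genes with the same sign in every pair of both times was not determined. The agreement of *Pcyt2* and *Chka* over both times thus has no background beside it. No member had groups without overlap, which 3.44% of all genes had at 24 h and 6.66% at 72 h.

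**Figure D2:**
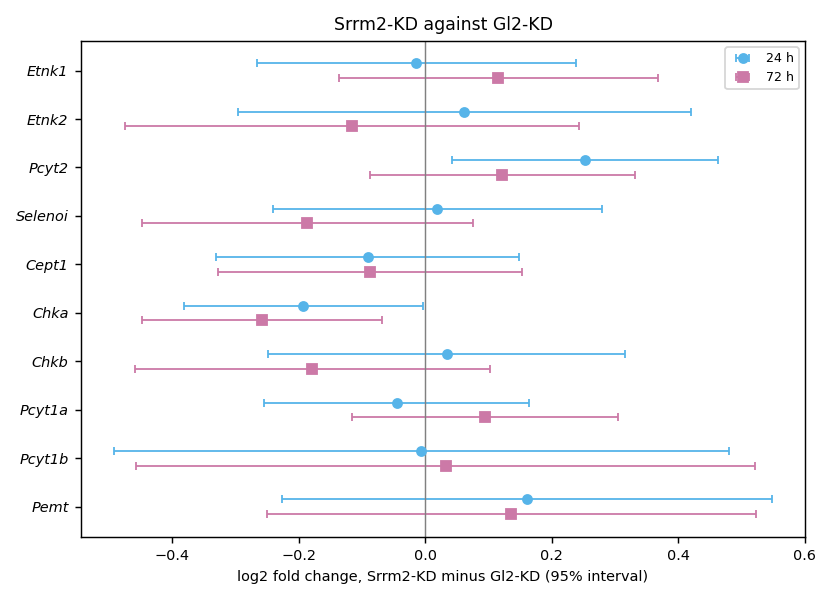
Log2 fold change of Srrm2-KD over Gl2-KD (horizontal axis, edgeR, bars for the 95% interval) of the 10 enzymes at 24 h and at 72 h. No gene carries the ring that would mark an adjusted p below 0.05. The mean of both times, which is not drawn, lay between -0.23 for *Chka* and 0.19 for *Pcyt2*. These were the only members whose interval for the mean left out 0.

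Larger differences separated 72 h from 24 h. *Selenoi* (ENSMUSG00000075703, forward strand, chr5:30232581-30272427) was lower at 72 h than at 24 h in every experiment and with both siRNAs. In Gl2-KD it was at 26.5, 30.0 and 21.3 CPM at 24 h in experiments 1 to 3 and at 18.2, 19.9 and 13.1 CPM at 72 h. In Srrm2-KD it was at 26.7, 33.3 and 19.7 CPM at 24 h and at 14.7, 15.7 and 13.8 CPM at 72 h. All 3 libraries of 72 h were below all 3 of 24 h with either siRNA. *Selenoi* fell by 0.61 on the log2 scale in Gl2-KD (standard error 0.119, 95% interval -0.87 to -0.35, adjusted p = 0.0363) and by 0.82 in Srrm2-KD (standard error 0.12, 95% interval -1.08 to -0.55, adjusted p = 0.0318), in edgeR's quasi-likelihood test, Benjamini-Hochberg adjusted. The decrease differed between the siRNAs by -0.21, which did not pass the test (adjusted p = 1).

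The direction of the *Selenoi* decrease was stable but its call was not. Over 23 alternative fits the change ranged from -0.66 to -0.56 in Gl2-KD and more widely, from -0.97 to -0.71, in Srrm2-KD. Leaving out any 1 of the 12 libraries gave -0.66 to -0.56 in Gl2-KD, and the adjusted p rose above the threshold without any of the 6 Gl2-KD libraries (0.0518 to 0.181) and without the Srrm2-KD library of experiment 2 at 24 h (0.0552). Without experiments 1, 2 and 3 the change in Gl2-KD was -0.65, -0.64 and -0.57, with adjusted p of 0.0713, 0.568 and 0.120. In Srrm2-KD the call held in 4 of the 12 fits that left out a library, those without the Gl2-KD libraries of 72 h in experiments 1 and 3 and without the Srrm2-KD libraries of experiment 3. It was lost without experiment 1 (-0.80, adjusted p = 0.0635) and without experiment 2 (-0.71, adjusted p = 0.705).

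*Pcyt1b* (ENSMUSG00000035246, forward strand, chrX:93654863-93749951) also fell with time, by a larger factor and from very unequal starting levels. In Gl2-KD the levels were 106, 86.6 and 31.5 CPM at 24 h and 81.5, 28.2 and 12.6 CPM at 72 h, and in Srrm2-KD 111, 80.9 and 32.5 CPM became 79.9, 28.1 and 13.9 CPM. Each experiment was lower at 72 h, but the groups overlapped, since experiment 1 at 72 h was above experiment 3 at 24 h. *Pcyt1b* fell by 1.11 on the log2 scale in Gl2-KD (standard error 0.226, 95% interval -1.61 to -0.62, adjusted p = 0.0411), and in Srrm2-KD the change was -1.07 (standard error 0.225, adjusted p = 0.0657), both by edgeR's quasi-likelihood test, Benjamini-Hochberg adjusted. Within experiments the log2 ratio in Gl2-KD was -0.38, -1.62 and -1.32, and in Srrm2-KD it was -0.48, -1.52 and -1.23. Without experiment 1, where it was smallest, the change was -1.48 in Gl2-KD (adjusted p = 0.00959) and -1.38 in Srrm2-KD (adjusted p = 0.0254). The Gl2-KD call was lost in 8 of the 12 fits that left out a library and held without the Gl2-KD library of experiment 1 at 72 h, without either Srrm2-KD library of experiment 1 and without the Srrm2-KD library of experiment 3 at 24 h. Its largest adjusted p, 0.235, came without the Gl2-KD library of experiment 2 at 72 h. Without experiment 2 or 3 the adjusted p was 0.607 and 0.200. *Pcyt1b* is known for its expression in brain and gonads. The summed neural markers, mostly *Tubb3* and *Pax6*, were 60.6 to 142 CPM at 24 h and 33.7 to 87.6 CPM at 72 h. Their part in the result was not tested. In bulk RNA, fewer cells of a type and less RNA per cell cannot be told apart.

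*Chkb* was higher at 72 h in every experiment but did not pass the threshold. In Gl2-KD it had 17.0, 22.7 and 37.6 CPM at 24 h and 22.8, 32.6 and 59.3 CPM at 72 h, which gave a log2 fold change of 0.54 (0.128 standard error, 95% interval 0.26 to 0.82, adjusted p = 0.064 by edgeR's quasi-likelihood test, Benjamini-Hochberg adjusted). Srrm2-KD had 20.0, 24.5 and 31.0 CPM at 24 h and 21.7, 30.2 and 47.1 CPM at 72 h, a log2 fold change of 0.33 (adjusted p = 0.239). The 24 h library of experiment 3 was above both 72 h libraries of experiments 1 and 2, so the groups overlapped. The change in Gl2-KD was called in 5 of 23 alternative fits, DESeq2 (adjusted p = 0.00593), edgeR with at least 10 counts required in every library (0.0480), edgeR's quasi-likelihood fit with legacy=FALSE (0.0471), and the fits without the Srrm2-KD library of 24 h in experiment 1 (0.0464) or experiment 3 (0.0329). Without experiment 1 it was 0.59 in Gl2-KD (adjusted p = 0.0763) and 0.44 in Srrm2-KD (adjusted p = 0.147).

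*Etnk2* was lower at 72 h in each experiment. In Gl2-KD it had 6.74, 11.1 and 8.46 CPM at 24 h and 5.61, 7.33 and 8.29 CPM at 72 h, a log2 fold change of -0.30 (adjusted p = 0.391 by the same test). In Srrm2-KD it had 7.26, 11.2 and 8.91 CPM at 24 h and 5.79, 6.43 and 7.16 CPM at 72 h. The Srrm2-KD groups did not overlap, while the log2 fold change of -0.48 (standard error 0.164, 95% interval -0.84 to -0.12) had an adjusted p of 0.188. Without experiment 1 the *Etnk2* values were -0.32 (adjusted p = 0.431) and -0.56 (adjusted p = 0.177). *Pcyt2* itself changed little with time, by 0.09 in Gl2-KD (95% interval -0.12 to 0.30) and -0.04 in Srrm2-KD (95% interval -0.25 to 0.17). *Chka*, *Etnk1*, *Pcyt1a*, *Cept1* and *Pemt* had log2 fold changes between -0.14 and 0.15 with either siRNA, none of them called. Without experiment 1 the range over these genes and *Pcyt2* was -0.18 to 0.25, again with none called.

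With time, 2 of the 10 genes were called in Gl2-KD and 1 in Srrm2-KD, all of them lower at 72 h, against 1.45% and 0.551% of all genes. The 3 experiments shared a sign for 6 members in Gl2-KD, against 36.5% of all genes, and for 4 in Srrm2-KD, against 32.8%. Groups did not overlap for 1 member in Gl2-KD, against 7.27%, and for 2 in Srrm2-KD, against 7.48%. The median log2 fold change of the 10 genes was 0.02 in Gl2-KD and -0.02 in Srrm2-KD, beside 0.02 and 0.00 over all genes. The time comparisons share their libraries with those of the siRNAs, so the values stand side by side and are not independent.

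**Figure D3:**
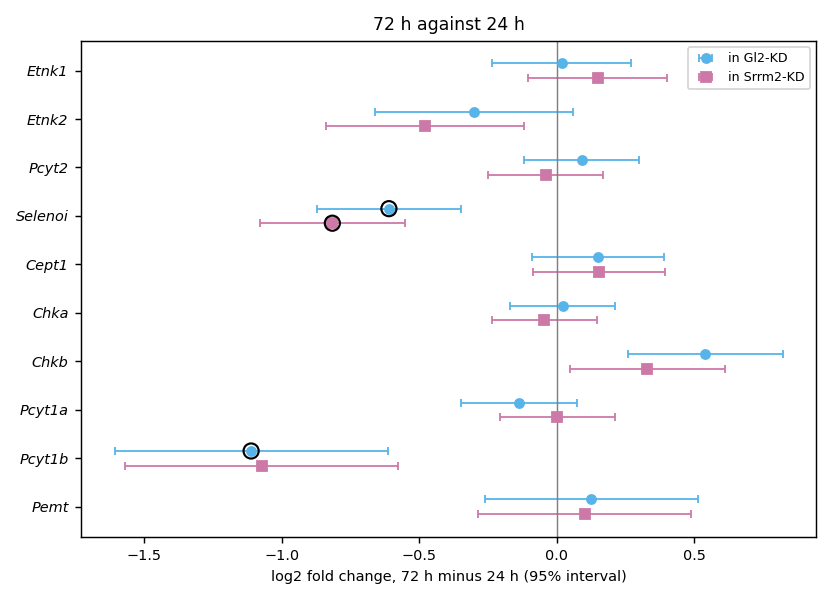
Log2 fold change of 72 h over 24 h (horizontal axis, edgeR, bars for the 95% interval) of the 10 enzymes in Gl2-KD and Srrm2-KD, with a ring around genes of adjusted p below 0.05. *Selenoi* (-0.61 and -0.82) and *Pcyt1b* (-1.11 and -1.07) lie left of 0 with both siRNAs, and *Pcyt2* lies near 0 with both (0.09 and -0.04).

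The experiments also differed, and not in 1 direction. The 4 libraries of experiment 1 had 288 to 360 CPM of *Etnk1*, while the 8 libraries of experiments 2 and 3 had 114 to 155 CPM. For *Pcyt2* experiment 1 was the lower, at 52.2 to 66.1 CPM against 72.3 to 93.7 CPM. Neither gene overlapped between experiment 1 and the others, nor did *Pcyt1a* (35.3 to 40.5 CPM against 23.2 to 29.5) or *Pemt* (2.19 to 3.09 CPM against 3.92 to 6.30). These 4 genes without overlap compare with 30.5% of all genes.

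In the contrast of experiment 1 with the mean of the others, 8 of the 10 genes were called, 4 higher and 4 lower, against the 53.4% of all genes given above. This contrast was chosen after experiment 1 had been seen to stand apart. Its p-values treat the 4 libraries of an experiment as replicates, although these differ in siRNA and time. *Pcyt1b* was higher by 1.59 in log2 units (standard error 0.162, adjusted p = 1.38e-05), *Etnk1* by 1.27 (standard error 0.0832, adjusted p = 7.73e-07), *Pcyt1a* by 0.52 and *Chka* by 0.25, by edgeR's quasi-likelihood test, Benjamini-Hochberg adjusted. *Pemt*, *Chkb*, *Pcyt2* and *Etnk2* had -0.82, -0.75, -0.49 and -0.43. The first step of the branches was thus split, with the more abundant kinases *Etnk1* and *Chka* higher in experiment 1 and *Etnk2* and *Chkb* lower. The adjusted p was 0.0527 for *Chka* without the Gl2-KD library of 72 h of experiment 1, and that of *Etnk2* reached the threshold without the one of 24 h. The *Etnk2* call was also lost when libraries were scaled by their totals only (-0.32, adjusted p = 0.0593). Between experiments 2 and 3, 3 of the 10 genes were called, against 14.2% of all genes, with the libraries of an experiment again treated as replicates. *Pcyt1b* (1.25, adjusted p = 0.00566) and *Selenoi* (0.51, adjusted p = 0.0128) were higher in experiment 2, and *Chkb* (-0.65, adjusted p = 0.00756) was lower. The *Selenoi* call was lost without the 24 h library of experiment 2 in Gl2-KD (adjusted p = 0.0527) or in Srrm2-KD (adjusted p = 0.0654). Summed ESC markers were 5015 to 6026 CPM in experiment 1, 6142 to 7336 in experiment 2 and 6776 to 7697 in experiment 3. Fibroblast markers, mostly *Thy1*, were 3.89 to 7.57, 10.1 to 11.9 and 16.9 to 24.6 CPM. In the same order, neural markers were 84.3 to 102, 52.8 to 142 and 33.7 to 64.3 CPM, and primitive endoderm markers were 4.26 to 5.33, 2.84 to 4.33 and 2.28 to 3.19 CPM. Trophectoderm markers were 72.9 to 98.2, 53.1 to 92.0 and 64.1 to 105 CPM, and those of mesoderm 2.78 to 6.76, 3.91 to 7.38 and 3.81 to 5.84 CPM. The part of other cells in these differences was not tested.

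As shares of each gene's sum of squares of log2 CPM over the 12 libraries, the experiment held 96.1% for *Etnk1* and 92.3% for *Pcyt1a*, and it held the largest share for every member except *Selenoi*. *Selenoi* had 68.9% in time and 24.2% in the experiment. *Chka* had the largest share in the siRNA, 41.5%, followed by *Pcyt2* with 13.0%, while the siRNA held at most 9.74% for each of the other 8 genes.

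Levels of different genes were compared as CPM per kb of the median protein-coding transcript. *Etnk1* had the highest median over the 12 libraries, 55.6 CPM per kb (SD 36.8), followed by *Chka* at 47.3 (SD 6.09) and *Pcyt2* at 46.4 (SD 7.86). *Chkb* at 24.5 (SD 11.1), *Cept1* at 19.0 (SD 1.97), *Pcyt1b* at 11.5 (SD 7.50) and *Pcyt1a* at 9.31 (SD 1.96) were in the middle. *Pemt* at 4.39 (SD 1.29), *Etnk2* at 3.34 (SD 0.846) and *Selenoi* at 2.91 (SD 0.978) were lowest. By this length only *Pcyt1a* and *Pemt* were neighbours whose ranges did not overlap. *Chka* was above *Pcyt2* in 7 of 12 libraries and *Pcyt1b* above *Pcyt1a* in 6 of 12, so the order within these pairs was not settled. *Etnk1* was above *Chka* in 10 of 12 libraries, but its place depends on the length used, since it was behind *Chka* and *Pcyt2* by the longest coding transcript and *Pcyt2* was first by the union of exons. *Pcyt2* stood above *Pcyt1a* by every length, and the last 3 places were the same by every length.

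**Figure D4:**
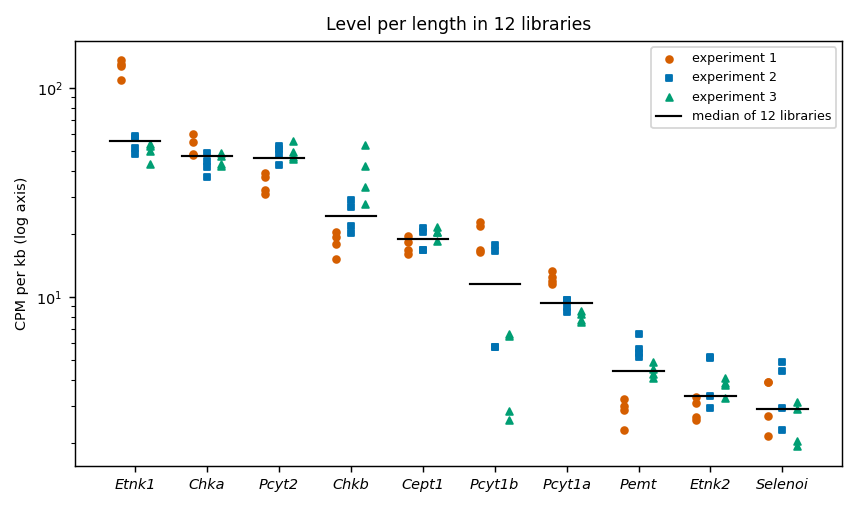
Level of the 10 enzymes as CPM per kb of median protein-coding transcript (log axis), with each library as a point and the median over 12 libraries as a line. The medians run from 2.91 for *Selenoi* to 55.6 for *Etnk1*, whose libraries of experiment 1 lie far above the rest.

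Genes at the same step of the pathway were also set against each other within each library. The log2 ratio of *Pcyt2* to *Pcyt1a*, the cytidyltransferase step, was higher in Srrm2-KD than in Gl2-KD by 0.45, 0.16 and 0.29 at 24 h in experiments 1 to 3, and differed by 0.06, -0.04 and 0.07 at 72 h. At the kinase step, the ratio of *Etnk1* to *Chka* differed between the siRNAs by -0.06, 0.33 and 0.26 at 24 h and by 0.44, 0.23 and 0.47 at 72 h. At the last step, the ratio of *Selenoi* to *Cept1* was lower at 72 h than at 24 h by 0.64, 0.86 and 0.79 in Gl2-KD and by 0.81, 1.43 and 0.66 in Srrm2-KD. These are ratios of CPM, not of CPM per kb, so that they compare libraries and not the 2 genes, and they were not tested.

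**Figure D5:**
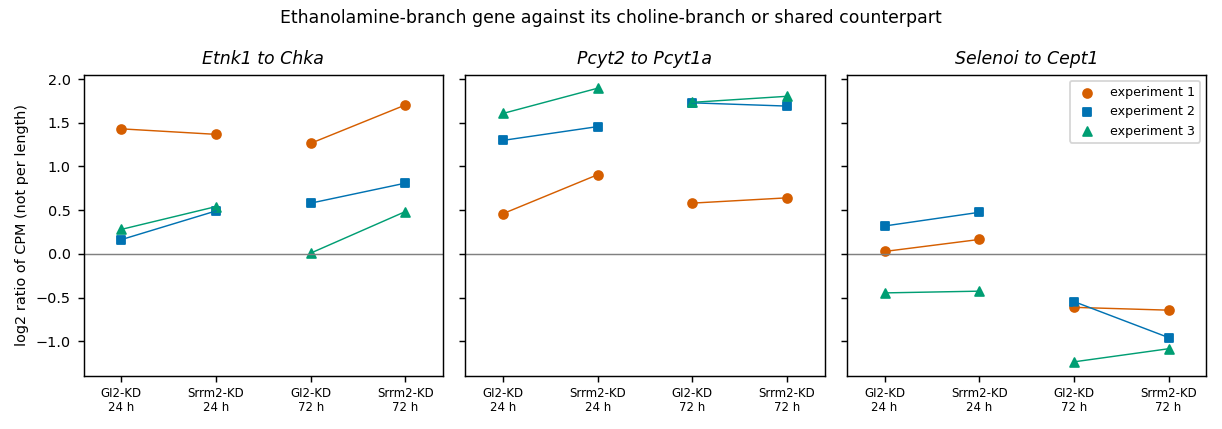
Log2 ratio of an ethanolamine-branch gene to its choline-branch or shared counterpart in each library (vertical axis, ratio of CPM) for *Pcyt2* to *Pcyt1a*, *Etnk1* to *Chka* and *Selenoi* to *Cept1*, by siRNA and time, with each experiment as a point. The ratio of *Selenoi* to *Cept1* is lower at 72 h in each experiment, with group means of -0.03 at 24 h and -0.80 at 72 h in Gl2-KD and of 0.07 and -0.90 in Srrm2-KD.

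The genes whose pattern was most like that of *Pcyt2* were sought by Pearson's r of log2 CPM over the 12 libraries after removing the mean of each experiment. They were *Snord73a* (r = 0.89), *Vps35l* (0.87), *Itgae* (0.87), *Myoz2* (0.86) and *Adat2* (0.86), and none of the 5 was called in any comparison of siRNA or time. Among the members, *Chka* was the most opposite (r = -0.84, rank 19401 of 19410), and *Pemt* (0.45) and *Etnk1* (0.32) came nearest. Differences by siRNA remain in these r, so that of *Chka* in part restates its opposite siRNA difference and is no separate result. With the experiment means kept, r was 0.84 for *Pemt* but -0.84 for *Etnk1*. These values describe libraries that share experiments and have no p.

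Beyond the 10 enzymes, 58 other genes of phospholipid synthesis were listed, of which 57 passed the filter and *Slc5a7*, a choline transporter of neurons, had at most 3 counts. No listed gene was called for the siRNA at 24 h, at 72 h, for their mean or for the difference between times, with 0, 11, 9 and 1 of 57 at an unadjusted p below 0.05, against 2.62%, 12.9%, 13.6% and 1.64% of all genes. DESeq2 called 0, 2, 1 and 0 of them, and limma-voom called 0 in each. Their median log2 fold change at 72 h was -0.09, with 38 of 57 below 0, beside -0.02 and 52.1% over all genes. With time, 1 of 57 was called in Gl2-KD and none in Srrm2-KD, against 1.45% and 0.551% of all genes. By unadjusted p, 7 of 57 were below 0.05 in Gl2-KD and 12 in Srrm2-KD, against 16.8% and 16.3% of all genes. In Srrm2-KD 5 were called with DESeq2 and 1 with limma-voom. The gene called in Gl2-KD was *Pnpla7*, a lysophospholipase that releases glycerophosphocholine and so feeds choline back. It went from 15.2, 14.5 and 31.9 CPM at 24 h to 22.3, 22.4 and 75.3 CPM at 72 h in Gl2-KD, and each experiment was higher at 72 h. The increase was 0.82 in log2 units (standard error 0.152, adjusted p = 0.0309, edgeR's quasi-likelihood test, Benjamini-Hochberg adjusted). In Srrm2-KD the change was 0.44 (adjusted p = 0.191). Without experiment 1 the increase in Gl2-KD was 0.95 (adjusted p = 0.0471), still called. The call was lost without the Gl2-KD libraries of 24 h (adjusted p 0.0984, 0.160 and 0.126), without those of 72 h in experiments 2 and 3 (0.118 and 0.0859), without the Srrm2-KD library of 24 h in experiment 2 (0.0552) and without experiment 2 or 3 (0.566 and 0.118).

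Between experiment 1 and the others, 29 of the 57 genes or 50.9% were called, 10 higher and 19 lower, a share near that of all genes. *Gpam*, which makes lysophosphatidic acid at mitochondria, was at 2.91 to 6.05 CPM in experiment 1 and at 0 to 0.132 CPM in the other 8 libraries. *Gpat3*, an acyltransferase of the same step in the endoplasmic reticulum, had a log2 fold change of -2.02 at only 20 to 183 counts in a library. *Gpcpd1*, which cleaves glycerophosphocholine, and *Etnppl*, which breaks down phosphoethanolamine, were higher by 0.86 and 2.26. *Etnppl* had only 1 to 45 counts in a library. Of the route that exchanges serine with these phospholipids, *Ptdss1* was higher by 0.48 and *Ptdss2* and *Pisd* lower, with -0.32 and -0.36. *Agps* and *Far1* of ether lipid synthesis were higher by 0.60 and 0.68, and *Lpcat4*, which reacylates lysophospholipids, had -0.95. Between experiments 2 and 3, 11 of 57 or 19.3% were called, 3 higher and 8 lower, among them *Pnpla7* (-1.32), *Cds1* (-1.02), *Mboat2* (-0.77) and *Agpat4* (-0.65).

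Among the members, 5 overlap annotated genes on the opposite strand, and the sources used here do not say whether counting used strand, so shared reads cannot be told apart. *Chkb* shares 320 exon bases with *C730034F03Rik*, which had 84 to 255 counts, and *Cept1* shares 771 with *Dennd2d* (44 to 158 counts) and 5 with *Dram2* (1206 to 2809 counts). *Pcyt1a* shares 567 with *Slc51a* (0 to 6 counts) and *Chka* shares 74 with the antisense gene *Gm16066* (0 to 39 counts). A pseudogene within *Selenoi*, *Gm16288*, shares no exon base and had 0 to 5 counts. *Pcyt2*, *Pcyt1b*, *Etnk1*, *Etnk2* and *Pemt* overlap no annotated gene.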

How the data were processed

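PolyA+ RNA of 12 libraries was sequenced after TruSeq Stranded mRNA preparation. The authors pseudoaligned the reads with kallisto 0.46.1 to GENCODE M24 (GRCm38) and deposited estimated counts per gene, not corrected for length. The sources used here do not say how transcripts were added up for a gene. Spike-ins were added and were not analysed here. Identifiers were matched to GENCODE M21 (42156 of 42450, with 0.175% of the counts unmatched).

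Counts were rounded and filtered with filterByExpr (minimum 10, total 15), and 19410 genes were tested with edgeR 4.0.16 in R 4.3.3 (TMM, 4 groups and experiment, glmQLFit with legacy=TRUE, quasi-likelihood test, two-sided, Benjamini-Hochberg threshold 0.05). A gene past that threshold is called. The study used the RNA processing day as covariate, which the labels do not give per library, so the experiment number took its place. Libraries of the same number deviated together (18 pairs, r 0.281 to 0.747 across genes, against -0.628 to 0.231 for 36 pairs of different numbers), so experiment was kept as the replicate block. CPM were TMM-scaled, and log2 ratios within experiments used CPM plus 0.01. DESeq2 1.42.0 and limma 3.58.1 were alternatives. The fits were run on simulated data with planted siRNA changes larger than those of the members and no differences between experiments. That run therefore cannot judge small changes or the use of the replicate block. No 2 libraries held identical values.

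The members and lists were chosen with earlier results of these data known. Named are all members, *Srrm2*, *Chpt1*, genes overlapping a member, some cell markers and the 5 genes most like *Pcyt2*. Of the lists of phospholipid genes, those called for the siRNA are named, and up to 4 per list and other comparison by smallest p. The members had 192 to 57734 counts in a library.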

Additional observations from a re-analysis of the deposited data

How the results depend on the processing

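*Selenoi* kept its decrease with time and its call in Gl2-KD and Srrm2-KD under DESeq2, limma-voom, RLE factors, library totals, either filter on low counts and glmQLFit with legacy=FALSE, and lost both calls without the replicate block. *Pcyt2* was called for the siRNA under none of the alternatives, with a lowest adjusted p of 0.0567 for the mean of both times. *Chka* was called for that mean by DESeq2 and by edgeR with a replicate block for each experiment and time point, each the 1 member then called where the reported fit called 0. The changed values below concern counts of calls, levels per length and small fold changes, and their causes were not tested except where fewer samples enter by construction.

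Where the reported fit called 282 genes with time in Gl2-KD, DESeq2 called 1338, a minimum of 10 counts in every library 476, legacy=FALSE 624 and limma-voom 482. For the 107 genes in Srrm2-KD, the same settings called 1061, 176, 279 and 259, and no filter on low counts called 212. There, DESeq2, the minimum of 10, legacy=FALSE and no filter each called 2 members, adding *Pcyt1b* to *Selenoi*. For the siRNA at 24 h, where 0 genes were called, these counts were 25 for DESeq2, 1 for the minimum of 10, 1 for legacy=FALSE, 2 for limma-voom and 1 for no filter. For the 0 at 72 h they were 542, 1, 5, 4 and 42, and 323 with the libraries of that time point only. For the 13 of the mean they were 733, 93, 79, 92 and 123, and 25 with RLE factors. For the difference between times, with 0 called, DESeq2 called 2 and no filter 1, and between experiments 2 and 3 DESeq2 called 4349 where edgeR called 2765.

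The replicate block decided many calls. Without it, 0 genes were called with time in Gl2-KD and Srrm2-KD and for the mean of the siRNA, and 0 members with time in either. With the replicate block for each experiment and time point, 724 genes were called for the siRNA at 72 h and 1124 for the mean. Without the replicate block, signs turned for *Chkb* at 24 h (-0.033), for *Pcyt1b* at 24 h (0.0017), at 72 h (-0.0033), for the mean (-0.00081) and for the difference between times (-0.0050), and for *Pemt* in that difference (0.078). With the block for each experiment and time point they turned for *Pcyt1b* at 24 h (0.0038) and *Cept1* in the difference (-0.0036).

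Other signs that turned were all of uncalled values near 0. With time in Gl2-KD, *Chka* had -0.018 with library totals, and *Etnk1* had -0.0019 with DESeq2, -0.0019 with RLE factors and -0.019 with library totals. In Srrm2-KD, *Pcyt1a* had -0.022 with library totals and -0.018 with no filter, and *Pcyt1b* had 0.0059 with no filter for the siRNA at 24 h. In the difference between times *Cept1* had -0.0017 with legacy=FALSE, -0.027 with limma-voom and -0.012 with no filter, and *Pemt* had 0.0015 with DESeq2, 0.014 with legacy=FALSE and 0.019 with limma-voom.

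Leaving out each library or experiment in turn gave 0 to 387 genes and 0 to 3 members called with time in Gl2-KD, and 0 to 135 genes and 0 to 1 members in Srrm2-KD. It gave 0 to 10 genes for the siRNA at 24 h, 0 to 55 at 72 h, 0 to 288 for the mean, 0 to 2 for the difference between times and 510 to 3285 between experiments 2 and 3. With time in Gl2-KD the log2 fold change then ranged from -0.042 to 0.077 for *Chka*, -0.138 to 0.133 for *Etnk1* and -0.0067 to 0.147 for *Pcyt2*. In Srrm2-KD it ranged from -0.100 to 0.044 for *Pcyt1a*, -0.152 to 0.026 for *Pcyt2* and -0.026 to 0.242 for *Pemt*. For the siRNA at 24 h it ranged from -0.094 to 0.183 for *Chkb*, -0.132 to 0.100 for *Etnk1*, -0.035 to 0.189 for *Etnk2*, -0.097 to 0.022 for *Pcyt1a*, -0.223 to 0.205 for *Pcyt1b*, -0.0057 to 0.276 for *Pemt* and -0.075 to 0.091 for *Selenoi*. At 72 h it ranged from -0.212 to 0.0019 for *Cept1*, -0.011 to 0.199 for *Etnk1* and -0.213 to 0.298 for *Pcyt1b*. For the mean it ranged from -0.152 to 0.037 for *Chkb*, -0.026 to 0.113 for *Etnk1*, -0.084 to 0.034 for *Etnk2*, -0.022 to 0.052 for *Pcyt1a* and -0.110 to 0.146 for *Pcyt1b*. For the difference between times it ranged from -0.120 to 0.085 for *Cept1*, -0.208 to 0.303 for *Pcyt1b* and -0.259 to 0.235 for *Pemt*, and between experiments 2 and 3 from -0.079 to 0.035 for *Pcyt2*.

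With the longest protein-coding transcript as length, the median level was 9.64 CPM per kb for *Cept1* and 5.93 for *Pcyt1a*. With the union of exons it was 18.0 for *Pcyt2*, 10.4 for *Etnk1*, 9.13 for *Chka*, 8.94 for *Chkb*, 8.71 for *Cept1*, 3.83 for *Pcyt1a*, 1.99 for *Pemt*, 1.60 for *Etnk2* and 1.51 for *Selenoi*. With 3 libraries a group, the 95% intervals of the siRNA effect on *Pcyt2* span about 0.04 to 0.46 at 24 h and -0.09 to 0.33 at 72 h. Larger effects lie outside these intervals, and the counts cannot show which of its isoforms carry them.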
